A study of Mus musculus with 9 samples.

Results

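The genes described here encode the machinery that starts transcription by RNA polymerase II, together with Mediator, in mouse embryos collected 34 h after fertilization. They are the rows of the deposited table whose symbol begins with Polr2, Gtf2, Med or Taf (the last 2 followed by a digit), plus Tbp, Cdk7, Cdk8, Cdk9, Ccnt1, Ccnt2, Ccnh and Mnat1. This choice by name found 91 of the 19359 genes in the table. Sorted by the complex their product belongs to, 13 encode polymerase subunits or an associated protein, 16 the general factors TFIIA, TFIIB, TFIIE, TFIIF and TFIIH, 17 TFIID, 31 Mediator and 3 the elongation kinase P-TEFb. The remaining 11 carry a matching name but belong elsewhere, among them the Pol I selectivity factor (Taf1a, Taf1b, Taf1c and Taf1d), the SAGA subunits Taf5l and Taf6l, the TFII-I family and the antisense transcript Med9os.

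The study asked how the timing of pronuclear transfer relates to the embryo's RNA. EPN embryos received an early pronuclear transfer, LPN embryos a later one, and SPN embryos a sham transfer that served as control. Each library was a pool of 3 embryos taken 34 h after fertilization, with 3 libraries (A, B and C) per group. In all 3 groups the oocyte donors were superovulated B6D2F1 females of 8 to 12 weeks, and the protocols also describe cytoplasts made by selectively enucleating oocytes at the germinal vesicle stage, without saying which groups contain them. Values are CPM, reads scaled to a common library total, and a log2 difference is a difference of group means of log2(CPM + 1). Nothing in the labels tells whether the pools of a group are separate matings or experiment days. The p-values therefore describe the spread among these 9 pools, which may be technical.

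Transcription by RNA polymerase II begins when general factors place the polymerase at a promoter. TFIID, which contains the TATA-binding protein Tbp and its associated factors (Tafs), recognises the promoter, TFIIA and TFIIB stabilise it there, TFIIF escorts the polymerase, and TFIIE and TFIIH open the DNA. The kinase module of TFIIH phosphorylates the tail of the largest polymerase subunit, and P-TEFb later releases paused polymerase. Mediator carries signals from activators to this assembly through its tail, middle and head, and a detachable kinase module can hold it back. A mouse embryo inherits RNA of these genes from the oocyte and begins its own transcription around the first cleavage, so in a pooled bulk library stored and newly made RNA are read together.

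Library totals ran from 7611781 to 15559218 reads, and the members took 1.41% to 1.68% of them. The embryo label was checked against fixed marker lists. The summed CPM of 8 markers of the 2-cell embryo was 3771 to 5510 in EPN, 4533 to 7128 in LPN and 1779 to 3221 in SPN. The sum of 8 oocyte markers was 3435 to 3912 in EPN, 1797 to 2736 in LPN and 4309 to 5302 in SPN. Both sums set each transfer group apart from SPN without overlap, and the oocyte sum also LPN from EPN. The part of these differences in the member results below was not tested. Of 6 blastocyst markers 5 were in the table, with a sum of 28.4 to 84.9 CPM in EPN, 17.5 to 40.9 in LPN and 53.9 to 80.4 in SPN. Of 6 blood markers 2 were in the table, with 33.9 to 79.8 CPM in EPN, 9.32 to 26.1 in LPN and 36 to 100.4 in SPN. In both of these lists LPN lay below SPN without overlap, and the part of these lists in the differences below was not tested. Of 6 sperm markers 4 were in the table, with 1.80 to 6.95 CPM in EPN, 3.55 to 6.62 in LPN and 6.02 to 12.3 in SPN. Of 11 cumulus and granulosa markers 7 were in the table, with a sum of 25.1 to 54.9 CPM in EPN, 27.1 to 39.5 in LPN and 30.5 to 46.2 in SPN and with Foxl2 at 0 in every library. In 54 of 90 tested members, 60% against 61.5% of all tested genes, SPN A lay nearer to the EPN mean than to the mean of SPN B and C. It lay nearer to the LPN mean in 41 of 90, 45.6% against 53% of all tested genes. SPN B and C were not scored in this way, so these shares do not single out SPN A. Leaving out SPN A gave more member calls than leaving out any other library. Those calls are given beside the values of all libraries, and they come from the omission most favourable to calls. Tbp, for example, passed in LPN against SPN under 3 of 18 alternatives, with log2 differences from 0.71 to 1.57 over them. Taf7 passed in EPN against SPN under 2 of 18, with 0.48 to 1.11.

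Later transfer was the condition in which members passed the test. In LPN against SPN, 12 of 90 tested members passed (limma, adjusted p under 0.05), 13.3% against 8.8% of all 14876 genes tested. Of these, 7 rose (Gtf2h2, Taf1a, Med12, Ccnh, Gtf2h1, Taf7 and Med7), against a background of 3.26% of genes higher in LPN. The other 5 fell (Med30, Taf10, Taf9b, Med15 and Taf7l), against 5.54% of genes lower in LPN. At an unadjusted p under 0.05 there were 36 members, 18 in each direction, where 26.9% of all genes passed. The groups did not overlap in 34 members, 20 higher and 14 lower in LPN, against 27.5% of all genes. In a bulk pool, fewer cells making a transcript and less of it per cell cannot be told apart.

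In EPN against SPN no member passed the limma test, where 0.108% of all genes did. By edgeR and by DESeq2, which called 0% and 0.799% of all genes, the number was also 0. At an unadjusted p under 0.05 it was 13, with 5 higher and 8 lower in EPN, against 11% of all genes. The groups did not overlap in 21 members, 6 higher and 15 lower in EPN, against 14.6% of all genes. In LPN against EPN no member passed either, where 1.53% of all genes did; edgeR gave 0 members, where it called 0.114% of all genes, and DESeq2 12, where it called 9.87%. At an unadjusted p under 0.05 there were 34 members, 21 higher and 13 lower in LPN, against 19.3% of all genes, and the groups did not overlap in 42 members, against 26.6% of all genes. A test for any difference among the 3 groups was passed by Med30, Gtf2h2, Taf10, Taf7l and Taf1a (limma F test, adjusted p under 0.05), 5 of 90 members against 5.73% of all genes; 30 passed without SPN A, against 17.1% of all genes, and 0 without LPN B or without SPN C, against 0.262% and 1.15%. Each pair of comparisons shares the libraries of 1 group, so the comparisons are not independent of each other.

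**Figure D1:**
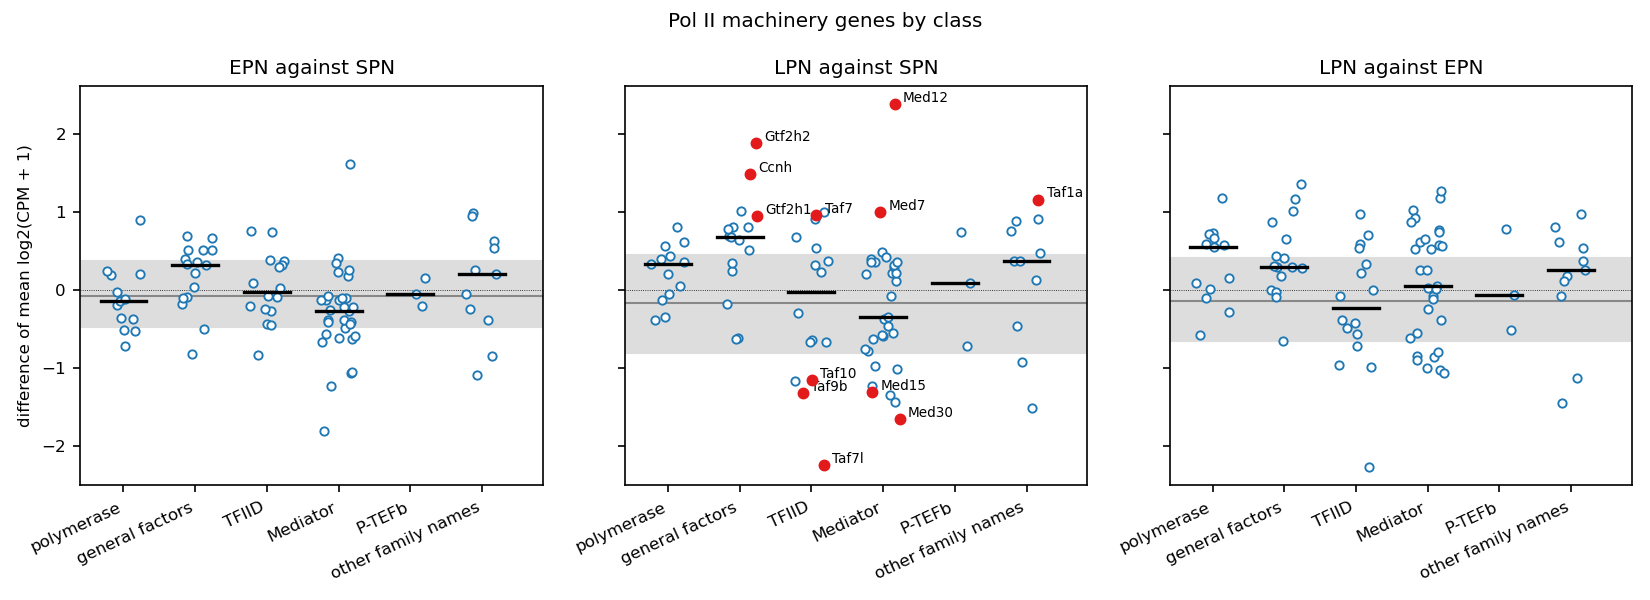
Log2 difference of every tested member (circles) by class, with EPN against SPN at the left, LPN against SPN in the middle and LPN against EPN at the right; black bars are class medians, the grey line and band are the median and interquartile range of all tested genes, and red circles passed the limma test. The 12 red circles all lie in LPN against SPN, and the general factors have the highest class median there, 0.68.

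The number of calls in LPN against SPN depended on single libraries. Without SPN A, 30 members passed, 16 higher and 14 lower, including all 12 above, where 18.4% of all genes passed. Without SPN B 4 passed (Gtf2h2, Med30, Taf1a and Taf9b), where 3.01% of all genes did, and without LPN A 5 (Med12, Med30, Taf10, Taf1a and Taf9b), where 3.89% did. Without LPN C 8 passed, of which 6 were among the 12, where 7.46% of all genes did. Without SPN C or without LPN B only Med30 passed, where 0.645% and 1.37% of all genes did. Run on whole reads recovered from the CPM, edgeR called 3 members (Ccnh, Gtf2h2 and Med30) where it called 3.21% of all genes, and DESeq2 called 22 where it called 17.5%. Med30 passed under all 18 alternatives tried. In EPN against SPN, leaving out SPN A gave 3 calls (Polr2b and Taf7 higher, Gtf2a2 lower), where 3.03% of all genes passed. In LPN against EPN it gave 6 (Gtf2e2, Polr2k and Taf12 higher, Med13, Med30 and Taf3 lower), where 5.12% passed.

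**Figure D2:**
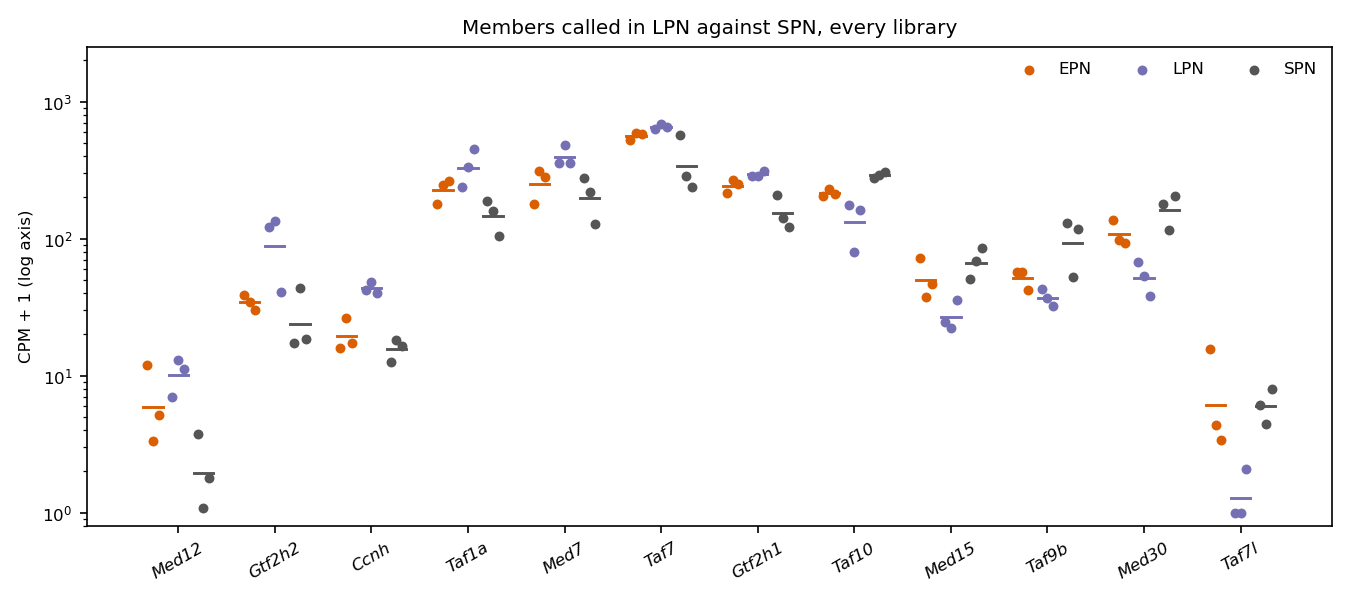
CPM + 1 on a log axis for the 12 members that passed in LPN against SPN, ordered from the largest rise to the largest fall; each dot is 1 library (A, B and C from left to right), bars are group means on the log scale, with EPN left, LPN in the middle and SPN right. Gtf2h2 is the member among them whose LPN and SPN libraries overlap, through LPN C and SPN B.

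Promoter sequences from RefSeq (GRCm38.p6) were matched for 79 of the 91 members, and 4 are printed for members that changed in LPN against SPN: 2 that rose, both of the TFIIH core, and 2 that fell. Each shows the 200 bases before the start, 5′ to 3′ on the gene's strand, with capitals for letters of the motifs searched, none of which overlap in these 4. Gtf2h1 lies at chr7:46795894-46796093, plus strand, and holds GGGCGG on either strand 2 times and CACGTG once. Gtf2h2 lies at chr13:100492395-100492594, minus strand, with GGGCGG once and CCGGAAG once on the opposite strand, printed as CTTCCGG. Taf10 lies at chr7:105744339-105744538, minus strand, with GGGCGG once. Med15 lies at chr16:17722948-17723147, minus strand, with CGCATGCGC once on the opposite strand, printed as GCGCATGCG.
Gtf2h1: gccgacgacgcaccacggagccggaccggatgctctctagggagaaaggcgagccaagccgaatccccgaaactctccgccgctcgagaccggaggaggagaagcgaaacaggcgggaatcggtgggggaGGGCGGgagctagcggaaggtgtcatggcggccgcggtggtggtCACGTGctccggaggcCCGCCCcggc
Gtf2h2: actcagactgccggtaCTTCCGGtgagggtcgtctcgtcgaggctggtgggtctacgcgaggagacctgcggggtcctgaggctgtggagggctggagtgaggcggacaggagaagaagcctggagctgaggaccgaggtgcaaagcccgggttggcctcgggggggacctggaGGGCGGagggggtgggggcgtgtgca
Taf10: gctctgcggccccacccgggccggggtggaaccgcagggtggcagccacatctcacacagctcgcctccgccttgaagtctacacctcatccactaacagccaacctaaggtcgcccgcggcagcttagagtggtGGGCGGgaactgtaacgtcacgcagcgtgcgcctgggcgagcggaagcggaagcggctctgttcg
Med15: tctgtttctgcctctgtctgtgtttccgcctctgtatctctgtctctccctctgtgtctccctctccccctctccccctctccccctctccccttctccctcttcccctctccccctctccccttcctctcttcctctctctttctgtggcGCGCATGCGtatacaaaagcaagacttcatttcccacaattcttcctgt

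Counts of 7 motifs were made over the 250 bases before each start, on both strands. They covered 79 members and all 27025 genes with a RefSeq promoter sequence. In this paragraph all genes means that RefSeq set, which was not limited to genes expressed or tested in these embryos. Whether members differ in these motifs from other expressed genes was not tested. The GC box GGGCGG occurred in 67.1% of members and 35.4% of all genes. The ETS core CCGGAAG occurred in 27.8% of members and 7.83% of all genes, and the E-box CACGTG in 16.5% and 6.86%. The TATA box TATAAA occurred in 15.2% of members and 14.3% of all genes, the CCAAT box (CCAAT) in 35.4% and 37.5%, the NRF1 core CGCATGCGC in 7.59% and 1.64%, and the YY1 core AAGATGGCG in 1.27% and 0.71%. Of the 9 called members with a sequence, GGGCGG was in 4 of 5 that rose and 2 of 4 that fell. By class GGGCGG was in 8 of 10 polymerase genes, 5 of 14 general factor genes, 11 of 14 TFIID genes and 18 of 27 Mediator genes. These are counts of letters, not of bound factors.

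None of the 13 polymerase genes passed the limma test in any comparison of all 9 libraries. Their summed level was 4218 ± 123 CPM in EPN, 4525 ± 326 in LPN and 4316 ± 254 in SPN (SD, n = 3 each). The class median of the log2 difference was 0.34 in LPN against SPN (all genes -0.17), 0.55 in LPN against EPN (all genes -0.14) and -0.14 in EPN against SPN (all genes -0.07); relative to all genes the last was -0.073, and 0.075 without EPN A. In LPN against SPN 9 of 13 genes of the class had a positive difference, where 6398 of all 14876 genes did. In LPN against EPN it was 10 of 13, where 6439 of all genes did.

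Polr2a, which encodes the largest, catalytic subunit and carries the repeated tail that kinases phosphorylate, had 18.3, 22.9 and 23.6 CPM in EPN, 35.9, 29.2 and 44.8 CPM in LPN and 21.9, 39.5 and 34.6 CPM in SPN. LPN lay above EPN in every library and overlapped SPN. Its log2 difference was 0.72 ± 0.39 (SE; limma, adjusted p = 0.313) in LPN against EPN and 0.21 ± 0.39 (SE; limma, adjusted p = 0.771) in LPN against SPN. Per length it was the scarcest subunit RNA, at 3.06 ± 0.408 CPM per kb in EPN, 5.18 ± 1.11 in LPN and 4.53 ± 1.28 in SPN (SD, n = 3 each). Polr2b, the second-largest subunit, which forms the active site with Polr2a, had 257, 259 and 339 CPM in EPN, 218, 191 and 302 CPM in LPN and 204, 154 and 111 CPM in SPN. All EPN libraries lay above all SPN libraries, and LPN overlapped both groups. The log2 difference in EPN against SPN was 0.89 ± 0.29 (SE; limma, adjusted p = 0.237), and 1.11 without SPN A (limma, adjusted p = 0.0294). In LPN against SPN it was 0.61 ± 0.29 (SE; limma, adjusted p = 0.171), and 0.83 without SPN A (limma, adjusted p = 0.0389).

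The small subunits Polr2j and Polr2d were far more abundant per length than Polr2a. Polr2j, a subunit of the assembly platform, had 588 ± 59.7 CPM per kb in EPN, 628 ± 59.1 in LPN and 499 ± 60.8 in SPN (SD, n = 3 each). Polr2d, part of the detachable stalk, had 489 ± 19.6 CPM per kb in EPN, 547 ± 66.0 in LPN and 431 ± 97.9 in SPN. Polr2c and Polr2f had the highest CPM of the class, on a scale that is not corrected for length, with 905 to 1235 CPM in EPN, 611 to 913 CPM in LPN and 783 to 1291 CPM in SPN for Polr2c, which anchors assembly, and 592 to 716 CPM in EPN, 531 to 735 CPM in LPN and 642 to 947 CPM in SPN for Polr2f; the groups overlapped for both.

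Of the 5 subunits that RNA polymerase II shares with polymerases I and III (Polr2e, Polr2f, Polr2h, Polr2k and Polr2l), all had a positive difference in LPN against EPN and all a negative one in EPN against SPN. Polr2k had 26.3, 63.8 and 50.6 CPM in EPN, 102, 93.9 and 108 CPM in LPN and 45.1, 67.1 and 62.3 CPM in SPN. Its LPN libraries lay above both other groups, with a log2 difference of 1.18 ± 0.35 (SE; limma, adjusted p = 0.0677) against EPN and 0.81 ± 0.35 (SE; limma, adjusted p = 0.129) against SPN. Polr2h had 183, 221 and 206 CPM in EPN, 328, 339 and 331 CPM in LPN and 199, 263 and 215 CPM in SPN, and again LPN was apart from both groups. The log2 difference was 0.71 ± 0.27 (SE; limma, adjusted p = 0.139) against EPN and 0.57 ± 0.27 (SE; limma, adjusted p = 0.167) against SPN. Polr2l had 205, 276 and 162 CPM in EPN, 324, 316 and 361 CPM in LPN and 280.1, 411 and 357 CPM in SPN, so that EPN lay below SPN in every library; the log2 difference in EPN against SPN was -0.72 ± 0.28 (SE; limma, adjusted p = 0.325). None of these passed the limma test with all 9 libraries, and Polr2k passed in LPN against EPN without SPN A. By DESeq2 Polr2h and Polr2k passed in LPN against both other groups and Polr2e in LPN against EPN.

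General factors had the highest class median in LPN against SPN. Their summed level was 1940 ± 108 CPM in EPN, 2369 ± 122 in LPN and 1726 ± 122 in SPN (SD, n = 3 each), and the 3 LPN sums, 2243 to 2486, lay above all SPN sums, 1585 to 1803, and all EPN sums, 1823 to 2035. Of 16 genes 3 rose and 13 had no call, with a median log2 difference of 0.68 and 13 of 16 above 0. Of all 14876 genes 6398 were above 0. In EPN against SPN the median was 0.33 and in LPN against EPN 0.30, with no call in either.

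TFIIH carried all 3 of these calls. The 8 TFIIH members by name, which leave out the helicases Ercc2 and Ercc3, had positive differences in LPN against SPN in 8 of 8 cases and in LPN against EPN in 8 of 8, with medians of 0.88 and 0.55. Of all 14876 genes 6398 and 6439 had positive differences in these comparisons. Of the helicases, Ercc3, which opens the promoter, had 21.2 to 34.3 CPM in EPN, 22.3 to 46.1 CPM in LPN and 17.1 to 40.2 CPM in SPN, with overlapping groups and a log2 difference of 0.08 (limma, adjusted p = 0.924) in LPN against SPN. Ercc2 was under the filter on low values, at 0.0781 to 0.300 CPM in EPN, 0.251 to 0.578 CPM in LPN and 0.525 to 0.886 CPM in SPN. The summed RNA of the 8 members was 733 ± 88.1 CPM in EPN, 1010 ± 116 CPM in LPN and 577 ± 54.6 CPM in SPN (SD, n = 3 each). The LPN sums, 877 to 1082, lay above the EPN sums, 660 to 830, and the EPN sums above the SPN sums, 519 to 627.

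Gtf2h2, a core subunit that stimulates the helicase Ercc2, had 37.9, 33.4 and 28.9 CPM in EPN, 121, 134 and 40.0 CPM in LPN and 16.2, 42.3 and 17.4 CPM in SPN. LPN A and B were high, whereas LPN C and SPN B were close to each other, so these groups overlapped. The log2 difference in LPN against SPN was 1.88 ± 0.43 (SE; limma, adjusted p = 0.00846). The call was lost without LPN A, without LPN B or without SPN C, with adjusted p of up to 0.0849. Gtf2h1, a core subunit that also binds activators, had 213, 264 and 247 CPM in EPN, 286, 286 and 308 CPM in LPN and 207, 141 and 120.1 CPM in SPN. Both transfer groups lay above SPN in every library and LPN above EPN. Its log2 difference was 0.94 ± 0.28 (SE; limma, adjusted p = 0.0336) in LPN against SPN and 0.66 ± 0.28 (SE; limma, adjusted p = 0.369) in EPN against SPN. The call in LPN against SPN was lost under 9 of 18 alternatives, among them leaving out EPN C, SPN B, SPN C or any 1 of the LPN libraries, with adjusted p of up to 0.186.

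The kinase module of TFIIH holds the kinase Cdk7, its cyclin Ccnh and the assembly factor Mnat1. Ccnh had 14.8, 25.5 and 16.3 CPM in EPN, 41.3, 47.2 and 39.1 CPM in LPN and 11.6, 17.2 and 15.4 CPM in SPN. All LPN libraries lay above every EPN and SPN library, and the log2 difference was 1.48 ± 0.42 (SE; limma, adjusted p = 0.0274) in LPN against SPN and 1.17 ± 0.42 (SE; limma, adjusted p = 0.123) in LPN against EPN. The call was lost without LPN A, LPN B, SPN B or SPN C, with adjusted p of up to 0.118. Cdk7 had 155, 218 and 175 CPM in EPN, 235, 253 and 185 CPM in LPN and 168, 94.3 and 127 CPM in SPN, with LPN above SPN in every library and a log2 difference of 0.81 ± 0.29 (SE; limma, adjusted p = 0.0728), and 1.02 without SPN A (limma, adjusted p = 0.0132). Mnat1 had 18.9 to 23.6 CPM in EPN, 34.2 to 45.2 CPM in LPN and 17.4 to 27.6 CPM in SPN, again with LPN apart from both groups and a log2 difference in LPN against SPN of 0.77 (limma, adjusted p = 0.201). The other core genes Gtf2h3, Gtf2h4 and Gtf2h5 had log2 differences of 0.81, 1.01 and 0.35 in LPN against SPN (limma, adjusted p = 0.149, 0.256 and 0.465), and Gtf2h3 had 1.11 without SPN A (limma, adjusted p = 0.0335).

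**Figure D3:**
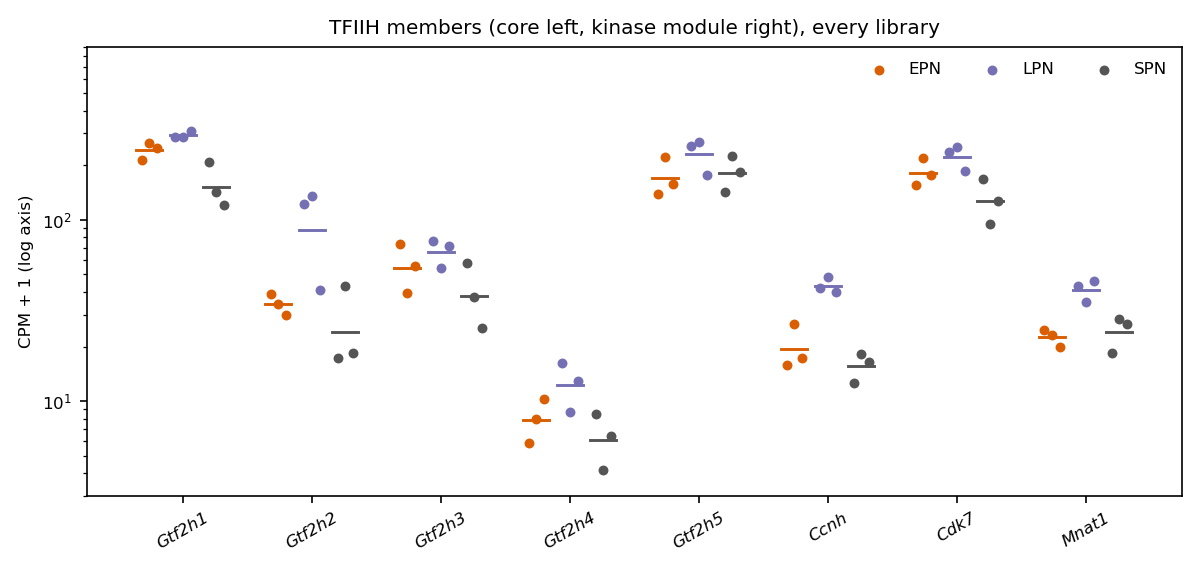
CPM + 1 on a log axis for the 8 TFIIH members, core subunits left and kinase module right; each dot is 1 library (A, B and C from left to right), bars are group means on the log scale, with EPN left, LPN in the middle and SPN right. The LPN mean is the highest of the 3 groups for each gene, and Gtf2h1, Ccnh and Mnat1 show LPN apart from both other groups.

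The remaining general factors did not pass the limma test in any comparison of all 9 libraries. Without SPN A 4 of them passed in LPN against SPN, where 18.4% of all genes did. Gtf2b, which encodes TFIIB and sets the polymerase over the start site, had 335, 351 and 294 CPM in EPN, 482, 494 and 274 CPM in LPN and 365, 219.6 and 190.0 CPM in SPN. LPN A and B were high, but LPN C overlapped SPN, and the log2 difference in LPN against SPN was 0.70 ± 0.29 (SE; limma, adjusted p = 0.123), and 0.97 without SPN A (limma, adjusted p = 0.0169). Gtf2f2, a TFIIF subunit, had 0.64 (limma, adjusted p = 0.151) in LPN against SPN, and 0.83 without SPN A (limma, adjusted p = 0.0373). The 3 TFIIA genes were the exception in sign, with negative differences in LPN against SPN, -0.61 for Gtf2a1, -0.63 for Gtf2a2 and -0.17 for Gtf2a1l, the germ cell form (limma, adjusted p = 0.2, 0.198 and 0.898). Without SPN A they were -0.98 for Gtf2a1 and -0.94 for Gtf2a2 (limma, adjusted p = 0.0155 and 0.0306). Gtf2a2 had 114, 105 and 84.4 CPM in EPN, 106, 158 and 88.1 CPM in LPN and 115, 235 and 205 CPM in SPN, EPN below SPN in every library, with a log2 difference of -0.81 ± 0.32 (SE; limma, adjusted p = 0.333) in EPN against SPN and -1.12 without SPN A (limma, adjusted p = 0.0391). For TFIIE, Gtf2e2 had 65.6, 55.0 and 59.3 CPM in EPN, 132, 136 and 101 CPM in LPN and 80.4, 79.6 and 96.3 CPM in SPN, with LPN highest, SPN between and EPN lowest and no overlap among the 3 groups. Its log2 difference was 1.02 ± 0.30 (SE; limma, adjusted p = 0.0722) in LPN against EPN. Gtf2f1, the other TFIIF subunit, was the most abundant general factor per length, at 173 ± 31.9 CPM per kb in EPN, 168 ± 65.9 in LPN and 136 ± 21.5 in SPN (SD, n = 3 each).

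Within TFIID members changed in both directions. Its summed level was 2186 ± 60.2 CPM in EPN, 2264 ± 47.3 in LPN and 2148 ± 240 in SPN (SD, n = 3 each). Of 16 tested genes 1 rose and 3 fell in LPN against SPN, 8 differences were positive and 8 negative, and the median was -0.03, or 0.14 relative to the median of all genes (-0.031 without LPN B). In EPN against SPN the median was -0.02 and in LPN against EPN -0.23, with no calls. Without SPN A 10 of 16 TFIID genes passed in LPN against SPN, where 18.4% of all genes did. The 6 added ones were Tbp, Taf4, Taf6, Taf8, Taf4b and Taf5. Taf6 had 1.35 and Taf8 1.53 (limma, adjusted p = 0.0486 and 0.00321), and Taf4b had -0.83 and Taf5 -0.87 (limma, adjusted p = 0.0336 and 0.0364). In the annotation of an older mouse assembly 26.5% of the exon bases of Taf6 lie opposite exons of Ap4m1. For Tbp 19.0% lie opposite exons of Pdcd2, and reads of the strands cannot be told apart here.

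Tbp, which binds the TATA element, had 117, 209 and 158 CPM in EPN, 273, 272 and 228 CPM in LPN and 283, 85.4 and 86.3 CPM in SPN. The LPN libraries lay together, above EPN in every library, while SPN A was above all of them and SPN B and C were the lowest. The log2 difference in LPN against SPN was 1.0 ± 0.35 (SE; limma, adjusted p = 0.0648), and 1.57 without SPN A (limma, adjusted p = 0.000886). Taf1, the largest Taf and the scaffold of the complex, had 84.2, 77.5 and 71.8 CPM in EPN, 64.8, 89.2 and 81.0 CPM in LPN and 52.7, 60.0 and 68.1 CPM in SPN, with EPN above SPN and LPN overlapping both. Its log2 difference was 0.37 ± 0.31 (SE; limma, adjusted p = 0.694) in EPN against SPN and 0.37 ± 0.31 (SE; limma, adjusted p = 0.473) in LPN against SPN.

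Taf7 rose and its germ cell paralog Taf7l fell in LPN against SPN. Taf7, which binds Taf1 and restrains it until initiation, had 523, 592 and 574 CPM in EPN, 626, 685 and 648 CPM in LPN and 566, 286 and 235 CPM in SPN. LPN lay above both groups, and SPN A lay close to EPN while SPN B and C were lower. Taf7 rose in LPN against SPN by a log2 difference of 0.95 ± 0.29 (SE; limma, adjusted p = 0.0358), and in EPN against SPN the value was 0.74 ± 0.29 (SE; limma, adjusted p = 0.329), or 1.11 without SPN A (limma, adjusted p = 0.0102). The call in LPN against SPN was lost under 9 of 18 alternatives, among them leaving out EPN C, SPN B, SPN C or any 1 of the LPN libraries, with adjusted p of up to 0.23. Taf7l had 14.6, 3.36 and 2.40 CPM in EPN, 0, 0 and 1.09 CPM in LPN and 5.09, 3.46 and 7.00 CPM in SPN, and was at 0 reads in LPN A and B, where a count of 0 allows up to 0.193 CPM and 0.394 CPM. Taf7l fell in LPN against SPN, with a log2 difference of -2.23 ± 0.67 (SE; limma, adjusted p = 0.0346), and in LPN against EPN the value was -2.26 ± 0.67 (SE; limma, adjusted p = 0.0678). With 2 libraries at 0 its size depends on the pseudocount, and in LPN against SPN it was -4.48 at a pseudocount of 0.1 CPM and ranged up to -2.03 over the alternatives. That call was lost under 6 of 17 alternatives, among them leaving out LPN A, LPN B, SPN B or SPN C, with adjusted p of up to 0.166. Per length Taf7 was at 189.6 to 207 CPM per kb in LPN and 71.2 to 171 in SPN, and Taf7l at 0 to 0.485 in LPN and 1.54 to 3.12 in SPN.

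Taf10, a histone-fold Taf that TFIID shares with SAGA, had 205, 230.0 and 212 CPM in EPN, 174, 78.6 and 161 CPM in LPN and 274, 292 and 307 CPM in SPN. The 3 groups did not overlap, with LPN lowest, EPN between and SPN highest, LPN B being the lowest library. The log2 difference in LPN against SPN was -1.15 ± 0.30 (SE; limma, adjusted p = 0.0166). The call was lost without LPN B, SPN B or SPN C, by edgeR and with no filter; over all alternatives the adjusted p reached 0.15. In the annotation of an older mouse assembly 45.9% of the exon bases of Taf10 lie opposite exons of Ilk, and reads of the strands cannot be told apart here. Taf9b, a paralog of Taf9, had 56.4, 56.0 and 41.4 CPM in EPN, 41.5, 36.0 and 31.1 CPM in LPN and 128, 51.6 and 116 CPM in SPN, with every LPN library below every SPN library; the difference was -1.32 ± 0.36 (SE; limma, adjusted p = 0.0232). Under 6 of 18 alternatives Taf9b did not pass, among them leaving out LPN B, LPN C or SPN C, with adjusted p of up to 0.15. Taf9 was not tested, at 0 to 1.31 CPM. Its exons share 73.8% of their bases with Ak6 on the same strand, and Ak6 had 187 to 329.8 CPM in EPN, 273 to 415 in LPN and 218 to 338 in SPN, so the split of reads between these genes is uncertain.

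Taf12, which pairs with Taf4 through a histone fold, had 108, 119.6 and 108 CPM in EPN, 213, 235 and 216 CPM in LPN and 154, 144 and 158 CPM in SPN. LPN was highest, SPN between and EPN lowest, with no overlap, and the log2 difference in LPN against EPN was 0.98 ± 0.28 (SE; limma, adjusted p = 0.0571), the smallest p of any member there. Its partner Taf4 lay lower in LPN than in both other groups, at 30.7, 41.6 and 30.4 CPM in EPN, 16.0, 12.9 and 23.5 CPM in LPN and 26.6, 49.5 and 45.2 CPM in SPN, and the difference from SPN was -1.16 ± 0.40 (SE; limma, adjusted p = 0.0639), and -1.43 without SPN A (limma, adjusted p = 0.0162). Taf4b, the gonadal paralog of Taf4, was more abundant per length than Taf4 in every group, at 43.6 ± 4.55 CPM per kb in EPN, 29.7 ± 6.32 in LPN and 47.1 ± 13.4 in SPN against 7.41 ± 1.38 CPM per kb in EPN, 3.78 ± 1.19 in LPN and 8.75 ± 2.64 in SPN for Taf4 (SD, n = 3 each). Taf3, which reads histone methylation, had 110.2 to 174 CPM in EPN, 65.7 to 78.9 CPM in LPN and 103 to 133 CPM in SPN, with LPN below both groups and a log2 difference of -0.99 ± 0.30 (SE; limma, adjusted p = 0.0751) in LPN against EPN. Taf13, which pairs with Taf11, had 213 to 223 CPM in EPN, 172 to 387 CPM in LPN and 222 to 255 CPM in SPN, with LPN spanning both other groups.

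**Figure D4:**
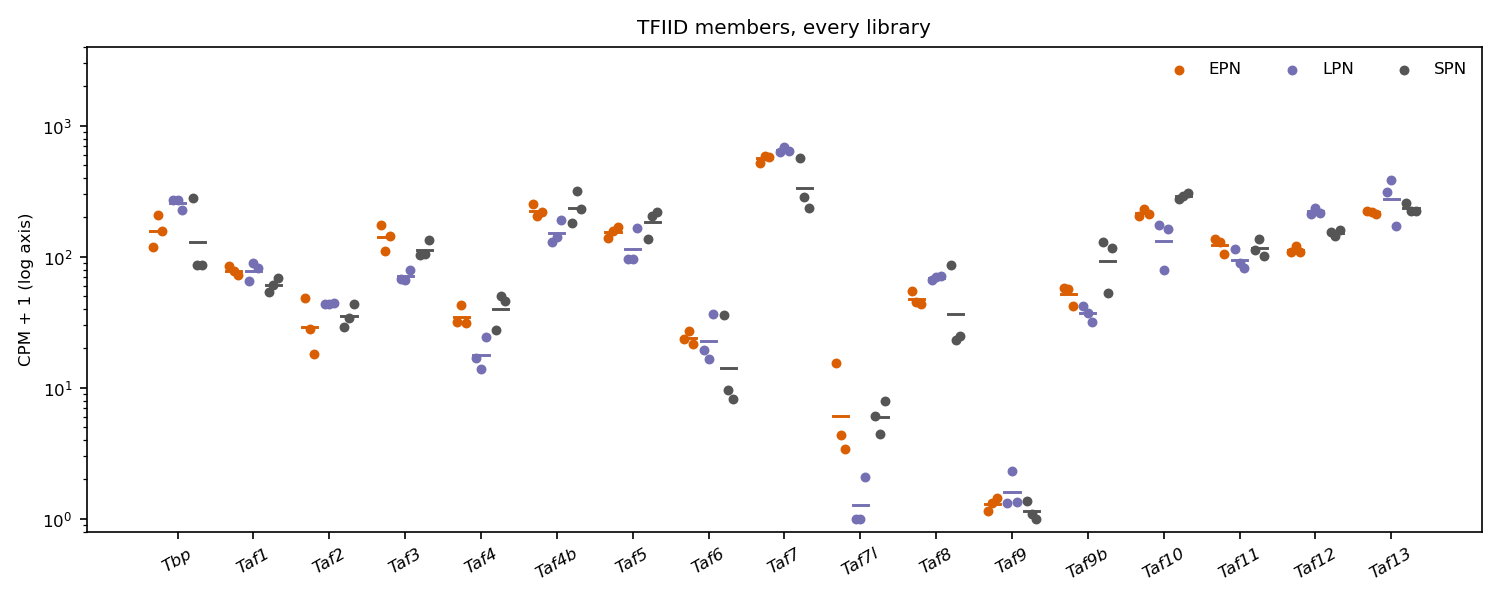
CPM + 1 on a log axis for the 17 TFIID genes; each dot is 1 library (A, B and C from left to right), bars are group means on the log scale, with EPN left, LPN in the middle and SPN right. Taf7 rose and Taf7l, Taf9b and Taf10 fell in LPN against SPN, and for Tbp, Taf6, Taf7 and Taf8 the SPN A dot lies far above those of SPN B and C.

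Mediator had no common direction in LPN and mostly negative differences in EPN. Its summed level was 5142 ± 241 CPM in EPN, 5514 ± 397 in LPN and 5679 ± 258 in SPN (SD, n = 3 each). In LPN against SPN 2 of 31 genes rose, 2 fell and 27 did not pass, with 14 positive and 17 negative differences and a median of -0.34, or -0.17 relative to all genes (0.034 with array quality weights). In EPN against SPN 25 of 31 differences were negative, where 8110 of all 14876 genes had negative ones. The median was -0.27 where all genes had -0.07, and no Mediator gene passed. In LPN against EPN the median was 0.05, and none passed.

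By module, the medians in LPN against SPN were -0.11 for the 10 head genes, 0.29 for the 8 middle genes, -0.63 for the 7 tail genes and -0.58 for the 5 kinase-module genes. Among the tail genes 6 of 7 were negative in LPN against SPN and 7 of 7 in EPN against SPN. Of all 14876 genes 8476 and 8110 were negative there. Among the middle genes 6 of 8 were positive in LPN against SPN and 7 of 8 in LPN against EPN.

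Med30, a head subunit found in animals and absent from yeast Mediator, had 136, 96.1 and 92.2 CPM in EPN, 66.0, 52.4 and 37.4 CPM in LPN and 177, 115 and 204 CPM in SPN. Every LPN library lay below every library of both other groups. The log2 difference was -1.65 ± 0.32 (SE; limma, adjusted p = 0.00338) in LPN against SPN and -1.06 ± 0.32 (SE; limma, adjusted p = 0.0756) in LPN against EPN. Other head genes that LPN held below SPN in every library were Med19, Med20 and Med22. Their log2 differences were -1.01, -0.58 and -0.75 (limma, adjusted p = 0.0657, 0.346 and 0.201), and Med19 had -1.13 without SPN A (limma, adjusted p = 0.0292). Of the exon bases of Med19 11.95% lie opposite Zdhhc5, and of those of Med20 21.4% lie opposite the pseudogene Kpna2-ps. Zdhhc5 also lay lower in LPN, at 33.2 to 52.8 CPM against 70.0 to 112 CPM in SPN. The part of these overlaps was not tested.

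Med15, a tail subunit that activators bind, had 71.0, 36.4 and 45.7 CPM in EPN, 23.7, 21.3 and 34.6 CPM in LPN and 49.4, 67.1 and 84.9 CPM in SPN, with LPN below both groups in every library. Its difference in LPN against SPN was -1.30 ± 0.37 (SE; limma, adjusted p = 0.0285). Under 7 of 18 alternatives Med15 did not pass, among them leaving out LPN A, LPN B, SPN B or SPN C, with adjusted p of up to 0.168. Med25, another activator target in the tail, had 31, 19.0 and 14.6 CPM in EPN, 8.23, 8.15 and 13.2 CPM in LPN and 16.3, 30.1 and 42.3 CPM in SPN, a like order, and a difference of -1.43 ± 0.47 (SE; limma, adjusted p = 0.0535), just outside the threshold, and -1.79 without SPN A (limma, adjusted p = 0.012). Med16, also of the tail, had 3.18, 2.11 and 0.749 CPM in EPN, 4.31, 1.71 and 12.4 CPM in LPN and 4.87, 11.9 and 11.7 CPM in SPN, EPN below SPN in every library, and a log2 difference of -1.80 ± 0.66 (SE; limma, adjusted p = 0.301) in EPN against SPN. Med27 and Med29, assigned here to the tail, had the highest levels per length, at 239.7 ± 24.8 CPM per kb in EPN, 409 ± 94.9 in LPN and 323 ± 28.6 in SPN for Med29 and 291 ± 12.9 CPM per kb in EPN, 200.4 ± 31 in LPN and 316 ± 93.4 in SPN for Med27 (SD, n = 3 each).

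Med7, which forms the hinge of the middle module with Med21, had 178, 312 and 280.5 CPM in EPN, 352, 479 and 356 CPM in LPN and 274, 219 and 126 CPM in SPN. LPN lay above both groups in every library, and the log2 difference from SPN was 0.99 ± 0.30 (SE; limma, adjusted p = 0.0378). The call held under 8 of 18 alternatives and was lost without EPN C, SPN B, SPN C or any 1 of the LPN libraries, with adjusted p of up to 0.258, and 21.2% of its exon bases lie opposite a noncoding gene. Med1, the middle subunit that contacts nuclear receptors, had 122 to 143 CPM in EPN, 83.6 to 155 CPM in LPN and 112 to 173 CPM in SPN, all groups overlapping, with a log2 difference of -0.37 ± 0.30 (SE; limma, adjusted p = 0.452) in LPN against SPN. Med26, which links Mediator to elongation factors, had 8.09 to 15.6 CPM in EPN, 10.1 to 21.9 CPM in LPN and 21.3 to 45.9 CPM in SPN, EPN below SPN in every library, with -1.23 ± 0.48 (SE; limma, adjusted p = 0.33) in EPN against SPN. Med10 had 740.0 to 1016 CPM in EPN, 850.4 to 944 CPM in LPN and 669.9 to 868 CPM in SPN, with overlapping groups; 92.8% of its exon bases lie opposite a long noncoding gene. Med14, the backbone that joins head, middle and tail, had 174, 165 and 220.2 CPM in EPN, 286, 269 and 269.9 CPM in LPN and 222, 191 and 264 CPM in SPN, LPN above both groups, with a log2 difference of 0.30 ± 0.27 (SE; limma, adjusted p = 0.507) in LPN against SPN and 0.57 ± 0.27 (SE; limma, adjusted p = 0.245) in LPN against EPN.

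The kinase module holds Cdk8, the cyclin Ccnc, Med12 and Med13, with paralogs Cdk19, Med12l and Med13l. Med12, which activates Cdk8, had 10.8, 2.34 and 4.20 CPM in EPN, 5.98, 12.1 and 10.1 CPM in LPN and 2.72, 0.0886 and 0.787 CPM in SPN. SPN B rests on 1 read and SPN C on 9, all LPN libraries lay above all SPN libraries, and EPN overlapped both groups. The log2 difference in LPN against SPN was 2.38 ± 0.66 (SE; limma, adjusted p = 0.0254), from a low level. Under 6 of 18 alternatives Med12 did not pass, among them leaving out LPN B, LPN C, SPN B or SPN C, with adjusted p of up to 0.117. The other module genes among the members had negative values: for Med13, Med13l, Med12l and Cdk8 the log2 differences were -0.54, -1.23, -1.35 and -0.58 (limma, adjusted p = 0.198, 0.105, 0.148 and 0.18). Without SPN A they were -1.90 for Med13l and -0.82 for Cdk8 (limma, adjusted p = 0.00486 and 0.0249). Med13, which tethers the module to Mediator, had 266, 280.2 and 296 CPM in EPN, 139, 151 and 199.7 CPM in LPN and 205, 265 and 240.1 CPM in SPN, with LPN below EPN and SPN in every library and a difference of -0.80 ± 0.27 (SE; limma, adjusted p = 0.112) in LPN against EPN. Cdk8 had 176, 149 and 178 CPM in EPN, 174, 168 and 169 CPM in LPN and 183, 293 and 312 CPM in SPN, and both transfer groups lay below SPN in every library, with -0.61 ± 0.28 (SE; limma, adjusted p = 0.427) in EPN against SPN. Ccnc and Cdk19, which the naming rule leaves out, had differences of 0.46 (limma, adjusted p = 0.356) and -0.66 (limma, adjusted p = 0.48) in LPN against SPN.

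**Figure D5:**
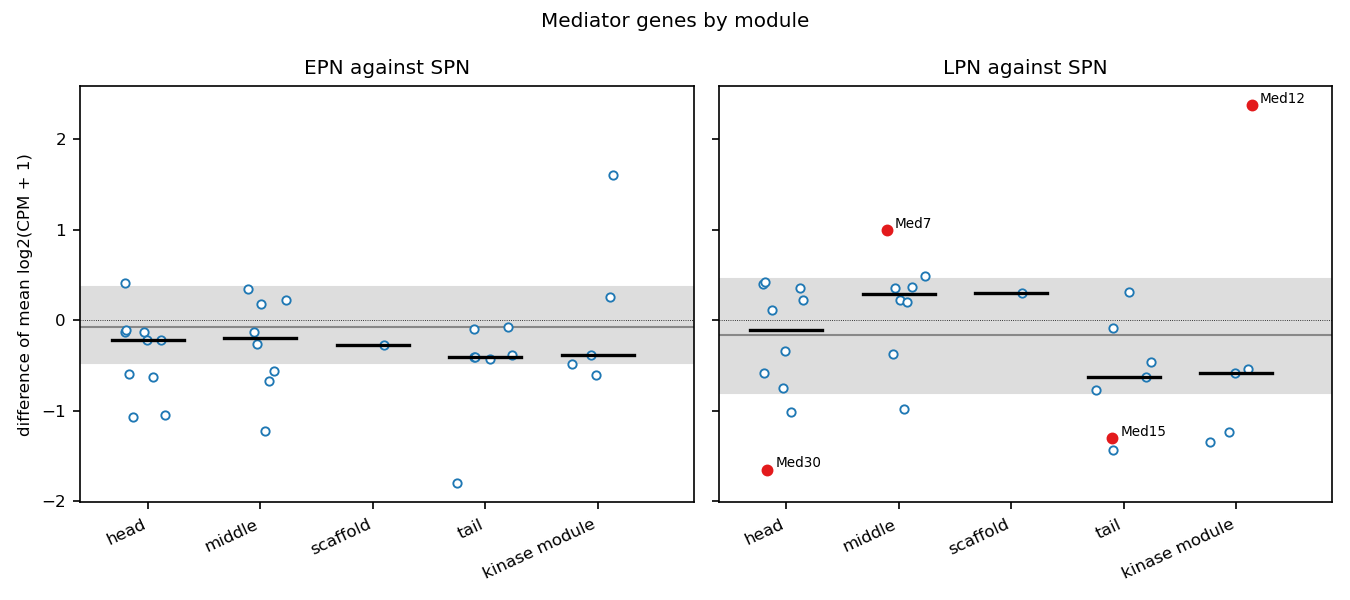
Log2 difference of the 31 Mediator genes (circles) by module in EPN against SPN (left) and LPN against SPN (right); black bars are module medians, the grey line and band are the median and interquartile range of all tested genes, and red circles passed the limma test. In EPN all 7 tail genes lie below 0, and in LPN Med7 and Med12 rose while Med15 and Med30 fell.

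P-TEFb genes did not pass the limma test in any comparison of all 9 libraries. Ccnt1, a cyclin of the complex, had 127, 83.7 and 100.3 CPM in EPN, 162, 186 and 183 CPM in LPN and 124, 106 and 89.5 CPM in SPN. LPN lay above both groups, with a log2 difference of 0.74 ± 0.29 (SE; limma, adjusted p = 0.1) in LPN against SPN and 0.79 ± 0.29 (SE; limma, adjusted p = 0.137) in LPN against EPN. In LPN against SPN it was 0.86 without SPN A (limma, adjusted p = 0.035), and it also passed by DESeq2. Cdk9, the kinase, had 105, 108 and 141 CPM in EPN, 90.3, 46.8 and 128 CPM in LPN and 120.2, 142 and 141 CPM in SPN, with LPN B low and all groups overlapping, and -0.71 ± 0.33 (SE; limma, adjusted p = 0.157) in LPN against SPN. Ccnt2, the alternative cyclin, had 66.8 to 104 CPM in EPN, 65.5 to 85.1 CPM in LPN and 54.0 to 91.3 CPM in SPN, with overlapping groups and 0.10 (limma, adjusted p = 0.885) in LPN against SPN.

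Among the genes that share only a name, Taf1a rose in LPN. It encodes a subunit of the selectivity factor that brings RNA polymerase I to ribosomal RNA genes, and had 178, 245 and 261 CPM in EPN, 236, 330.3 and 447 CPM in LPN and 188, 158 and 104 CPM in SPN. LPN lay above SPN in every library and overlapped EPN, with a log2 difference of 1.16 ± 0.30 (SE; limma, adjusted p = 0.0175) in LPN against SPN and 0.62 ± 0.30 (SE; limma, adjusted p = 0.444) in EPN against SPN. Under 5 of 18 alternatives Taf1a did not pass, among them leaving out LPN B, LPN C or SPN C, with adjusted p of up to 0.15. The other subunits of this factor had positive differences in LPN against SPN, 0.76 for Taf1b, 0.91 for Taf1c and 0.37 for Taf1d (limma, adjusted p = 0.127, 0.398 and 0.392). Taf5l, a SAGA subunit, had 5.24 to 15.7 CPM in EPN, 7.49 to 21.1 CPM in LPN and 18.6 to 28.3 CPM in SPN, EPN below SPN in every library, with -1.09 ± 0.52 (SE; limma, adjusted p = 0.437) in EPN against SPN.

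Other genes of the same pathway were taken from a list of 49 (regulators of TBP, of P-TEFb and of pausing, elongation factors, polymerase assembly and tail phosphatases), of which 47 were tested. In LPN against SPN 1 rose and 1 fell, 4.26% of the 47 against 8.8% of all genes. Gpn1, which helps import RNA polymerase II into the nucleus, had 193, 196 and 184 CPM in EPN, 350.4, 355 and 345 CPM in LPN and 165, 192 and 158 CPM in SPN, LPN above both groups, with a log2 difference of 1.03 (limma, adjusted p = 0.0166). In LPN against EPN Paf1, of the elongation complex named after it, fell, 2.13% of the 47 against 1.53% of all genes. It had 109.8, 105 and 225 CPM in LPN, 329, 254 and 359 CPM in EPN and 188, 169 and 150.1 CPM in SPN. The log2 difference was -1.17 (limma, adjusted p = 0.0412). In EPN against SPN none of the 47 passed, where 0.108% of all genes did. The TBP paralogs Tbpl2, the oocyte form, and Tbpl1 had log2 differences of -0.58 (limma, adjusted p = 0.645) and -0.65 (limma, adjusted p = 0.198) in LPN against SPN. Of 7 Pol I subunits by name Polr1e rose, with 188, 260.1 and 190.3 CPM in EPN, 444, 470.5 and 394 CPM in LPN and 286, 173 and 204 CPM in SPN and log2 differences of 1.0 (limma, adjusted p = 0.0248) in LPN against SPN and 1.04 (limma, adjusted p = 0.049) in LPN against EPN. Of 9 tested Pol III subunits none passed.

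Shorter members had the higher median in LPN against SPN, but not within every class. Split at 3946.5 exon bases, the 45 shorter members had a median log2 difference of 0.36 in LPN against SPN and the 45 longer ones -0.08, where shorter and longer genes of the whole table had -0.01 and -0.34. Within Mediator the medians were 0.32 for 15 shorter and -0.50 for 16 longer genes, and within the general factors 0.64 for 9 shorter and 0.70 for 7 longer genes. Within TFIID the medians were -0.66 for 5 shorter and 0.32 for 11 longer genes, and within the polymerase 0.35 for 10 shorter and 0.21 for 3 longer genes. The part of length in the member results was not tested.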

How the data were processed

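Poly(A) RNA of 9 pooled-embryo libraries was measured, 3 in each of EPN, LPN and SPN. The submitters' processing notes name the GRCm39 assembly with HISAT2 2.2.1, Trim Galore 0.6.7, edgeR and R 3.3.3. Which program counted reads, and on which annotation, is not given in the sources used here. CPM for 19359 genes were deposited by the authors. In every library 100% of the CPM values were whole multiples of 1 read within a tolerance of 0.01 reads, which gave library totals of 7611781 to 15559218 reads; 1 read equalled 0.0643 to 0.131 CPM. A count of 0 allows up to 3 reads, counting error only.

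With R 4.3.3 and limma 3.58.1, log2(CPM + 1) was fitted for 14876 genes reaching 1 CPM in 3 or more libraries, in 1 model of 3 groups (6 residual and 25.88 prior degrees of freedom), with moderated two-sided contrasts, Benjamini-Hochberg adjustment over all genes and a threshold of 0.05. Means are given ± SD. Recovered reads were tested with edgeR 4.0.16 and DESeq2 1.42.0 as alternatives, which called 477 and 1890 genes in LPN against SPN. The script was tested on simulated data. Of the alternatives, 9 changed the pseudocount, filter, scaling, block, samples, weights or test and 9 left out 1 library each.

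Members, classes and lists were chosen with earlier results of these data known. Named genes are all called members, the 2 smallest p values in each class without a call, 9 fixed members, the 2 highest CPM per class, untested members, and from the list of 49 the called and 7 fixed genes. The values of 1 gene of that list are not reported here. Other members, the Pol I and Pol III lists and the motifs were added after values were seen. Exon lengths and overlaps come from an older annotation, and no GRCm39 coordinates are given.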

Additional observations from a re-analysis of the deposited data

How the results depend on the processing

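None of the 126 member values recomputed reversed with a call, and the 12 calls in LPN against SPN held under 8 (Med7) to 18 (Med30) of the alternatives. Members called in LPN against SPN numbered 12 as reported, 3 with no filter (2.57% of all genes), 3 by edgeR (3.21%), 8 in the fit of 6 libraries (4.43%), 22 by DESeq2 (17.5%), 24 with array quality weights (18.4%) and 1 to 30 with 1 library left out. In EPN against SPN there were 0, against 2 with weights (2.1% of all genes) and 0 to 3 with 1 library left out. In LPN against EPN there were 0, against 2 at a mean of at least 5 CPM (4.02% of all genes), 3 in the fit of 6 libraries (3.12%), 12 with weights (8.88%), 12 by DESeq2 (9.87%) and 0 to 6 with 1 library left out (6 without SPN A). In the test for any group there were 5, against 3 at a pseudocount of 0.1 CPM (3.67% of all genes), 0 with no filter (0%), 9 at a mean of at least 5 CPM (12.3%), 8 with median-of-ratios scaling (4.97%), 34 with weights (19.4%), 0 by edgeR (0.739%), 17 by DESeq2 (19.1%) and 0 to 30 with 1 library left out. The causes were not tested.

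The replicate block gave 13 member calls in LPN against SPN (11.1% of all genes), 4 in LPN against EPN (3.23%), 0 in EPN against SPN (0.168%) and 12 for any group (8.44%). Deviations of same-lettered libraries correlated at -0.02 to 0.09, none above 0.1, and those of differently lettered ones at -0.0996 to 0.096. The letters were not taken as a pairing because the labels do not give their meaning. These correlations do not settle whether they mark one.

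Class medians relative to all genes moved as follows. TFIID in LPN against SPN was 0.14, and 0.34 with no filter, 0.39 at a mean of at least 5 CPM and -0.031 to 0.32 with 1 library left out. Mediator in LPN against SPN was -0.17, and 0.034 with weights. TFIID in LPN against EPN was -0.09, and 0.073 at a mean of at least 5 CPM and -0.14 to 0.024 with 1 library left out. With 1 library left out, general factors ranged from 0.64 to 1.04 in LPN against SPN, 0.21 to 0.52 in EPN against SPN and 0.35 to 0.62 in LPN against EPN; polymerase from -0.25 to 0.075 in EPN against SPN and 0.47 to 0.72 in LPN against EPN; and TFIID from -0.067 to 0.18 in EPN against SPN. Depth limits genes such as Med12, Taf7l and Taf9, which rest on few reads.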
